A study of Mus musculus with 17 samples.

Results

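The flanking regions described here are stretches of the mouse genome that held RNA polymerase II just outside protein-coding genes, more than 1 kb and at most 5 kb from the nearest gene end. They were found by pooling the polymerase summits of 16 libraries, joining summits that lay within 500 bp of each other, and keeping each joined region whose midpoint lay outside every protein-coding gene, at that distance, with summits from at least 2 libraries. There were 2398 such regions, of 31969 regions of any position seen in at least 2 libraries and 47904 regions in all. Polymerase signal entered the choice only through the summits called in each library. At the inner edge the last region left out lay 999 bp past the 3′ end of Rsrp1, and the first one kept lay 1001 bp past the 3′ end of Rab10. At the outer edge the last one kept lay 5000 bp before Itgb1, and the first one left out lay 5006 bp past Ube2f.

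The study measured polymerase II by chromatin immunoprecipitation and sequencing (ChIP-seq) in bone marrow-derived macrophages, primary mouse cells grown from marrow in culture. Cells lacking N4bp1 (KO) and wild-type cells (WT) were left untreated or given R837 for 2, 4 or 6 h. R837, also called imiquimod, activates Toll-like receptor 7, and N4BP1 is a regulator of inflammatory signalling that caspase-8 can cleave. Each of the 8 groups had 2 libraries, so 12 libraries came from treated cells and 4 from untreated cells, and the labels used here give no age, strain, allele or animal of origin.

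Polymerase II transcribes protein-coding genes and many noncoding ones, including most microRNA precursors, small nuclear RNAs and long noncoding RNAs. It does not stop at the end of a gene: after the transcript is cleaved at the poly(A) signal, the enzyme goes on for several kilobases, slows and is then released, so polymerase past a 3′ end can come from the gene beside it. Polymerase before a 5′ end can lie on a divergent transcript, an enhancer or another gene. In macrophages, Toll-like receptor ligands activate NF-kB and drive strong transcription of cytokines and of their own feedback inhibitors.

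RNA genes lay in or near some of these regions, and the mature microRNAs of those that come up below are shown for that reason, with the seed (bases 2 to 8) in capitals. RefSeq (GRCm38.p6) placed 23 microRNA genes within 2 kb of 18 flanking regions, and 11 of those regions could be tested. The hairpin of miR-21a lay 1407 bp from the region past Vmp1, which had the largest rise after R837. The hairpin of miR-155, a microRNA known for its induction in activated macrophages, lay 112 bp from a region assigned to Mrpl39. The cluster of miR-23a, miR-27a and miR-24 lay by a region of Zswim4, and miR-132 and miR-212, which share the seed AACAGUC, lay by a region of Ovca2. The hairpin of miR-7060 lay 1312 bp from a region of Fbrs.
mmu-miR-21a-5p: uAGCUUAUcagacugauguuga
mmu-miR-21a-3p: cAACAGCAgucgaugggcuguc
mmu-miR-155-5p: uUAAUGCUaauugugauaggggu
mmu-miR-23a-3p: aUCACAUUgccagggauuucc
mmu-miR-27a-3p: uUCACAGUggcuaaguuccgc
mmu-miR-24-3p: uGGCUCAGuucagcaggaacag
mmu-miR-132-3p: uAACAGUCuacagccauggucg
mmu-miR-212-3p: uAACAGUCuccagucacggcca
mmu-miR-7060-5p: gUGAGUGCuggguagaauggga

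Promoters inside flanking regions are shown because 4 of the 8 flanking regions with the highest mean rank over the libraries lay over genes of noncoding RNAs, among them hosts of small nucleolar RNAs. RefSeq promoter windows of 300 bases (250 before the start and 50 from it on) fell in 38 flanking regions, for 41 genes in 43 windows, 35 of them lncRNA genes and 6 protein-coding ones. The capitals mark the longest run of C and T within 10 bases of the annotated start. Genes of the translation machinery, and many of these noncoding hosts, are known to start in such runs.
2410006H16Rik (flank of Lrrc75a, chr11:62602627-62602926, plus strand): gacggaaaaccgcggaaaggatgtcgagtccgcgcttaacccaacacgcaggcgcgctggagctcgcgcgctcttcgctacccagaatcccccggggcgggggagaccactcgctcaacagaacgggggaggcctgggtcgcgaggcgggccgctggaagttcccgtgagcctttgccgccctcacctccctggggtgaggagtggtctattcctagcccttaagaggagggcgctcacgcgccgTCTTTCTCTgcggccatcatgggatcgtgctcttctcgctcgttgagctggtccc
Snhg12 (flank of Trnau1ap, chr4:132308428-132308727, plus strand): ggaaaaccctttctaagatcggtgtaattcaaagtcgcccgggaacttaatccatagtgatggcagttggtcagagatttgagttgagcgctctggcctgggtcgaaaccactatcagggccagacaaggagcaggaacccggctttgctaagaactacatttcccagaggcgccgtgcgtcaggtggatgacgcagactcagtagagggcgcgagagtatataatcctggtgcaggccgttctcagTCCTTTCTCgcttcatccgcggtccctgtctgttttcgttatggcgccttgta
Snhg7 (flank of Dipk1b, chr2:26640195-26640494, minus strand): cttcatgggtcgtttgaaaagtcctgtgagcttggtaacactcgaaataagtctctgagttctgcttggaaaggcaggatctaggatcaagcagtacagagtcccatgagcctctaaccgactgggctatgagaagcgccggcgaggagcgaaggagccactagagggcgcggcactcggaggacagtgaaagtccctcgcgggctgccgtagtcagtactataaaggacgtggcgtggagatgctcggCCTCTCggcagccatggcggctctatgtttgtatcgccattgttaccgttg
Snhg8 (flank of Prss12, chr3:123508287-123508586, minus strand): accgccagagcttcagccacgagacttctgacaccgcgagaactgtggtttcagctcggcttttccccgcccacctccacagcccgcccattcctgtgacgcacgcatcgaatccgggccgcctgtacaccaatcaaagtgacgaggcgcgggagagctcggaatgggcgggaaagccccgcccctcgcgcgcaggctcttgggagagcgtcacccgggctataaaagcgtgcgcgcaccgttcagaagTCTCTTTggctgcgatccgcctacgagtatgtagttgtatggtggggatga
Snhg16 (flank of Prcd, chr11:116671410-116671709, plus strand): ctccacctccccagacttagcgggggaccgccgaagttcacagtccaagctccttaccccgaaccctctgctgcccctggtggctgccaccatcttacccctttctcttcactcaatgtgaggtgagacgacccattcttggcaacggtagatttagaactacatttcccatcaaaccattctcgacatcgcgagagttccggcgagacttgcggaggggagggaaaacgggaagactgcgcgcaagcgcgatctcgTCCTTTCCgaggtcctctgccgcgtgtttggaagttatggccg

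A run of at least 8 C or T letters near the start was found in 20.5% of the 39 promoters that held a summit and in 13.9% of all 27025 promoter windows. On either strand, the NF-kB letters (GGGA, any base, TTTCC) were in 0% of promoters with a summit and 0.385% of all windows, and the AP-1 letters TGANTCA in 5.13% of promoters with a summit and 7.93% of all windows. The PU.1 letters GAGGAA were in 33.3% of promoters with a summit and 28.3% of all windows, and the C/EBP letters TTGCNNCAA in 5.13% of promoters with a summit and 2.12% of all windows. The interferon response letters (GAAA, any 2 bases, GAAA) were in 0% of promoters with a summit and 3.49% of all windows, and the poly(A) signal AATAAA in 10.3% of promoters with a summit and 20% of all windows. These shares were not tested against each other. The promoters with a summit had a median of 16 CpG pairs, against 7 in all windows. In the Snhg12 window, 13 libraries had a summit, at a median of 21 bases from the annotated start.

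The files hold summit positions and scores rather than reads, so sequencing depth is unknown. The lists ran from 8394 to 29760 summits, and every list was shortened to its best 8394. Each region then got a rank score in each library, log2 of the list length plus 1 over the rank of its best summit, which is 13.04 for the top summit and 0 where the shortened list had none. A score 1 higher means a rank 2 times better. All 10 macrophage marker genes had summits, 6 of them in all 16 libraries, and their summed score per library was 31.6 to 52.0. Of the markers of other cell types, T and NK cells had Cd3d in 3 libraries, neutrophils S100a8 in 1, fibroblasts Pdgfrb in 1, and dendritic cells Flt3 in 2 and Xcr1 in 16, while B cell, mast cell and erythroid markers had no summit. The second KO library at 6 h stood apart: its highest deposited score was 563.5, against 233.4 to 320.4 elsewhere. The codes in the deposited peak names put the untreated and 2 h libraries in 1 series, the 4 h libraries in another and the 6 h libraries in another. The labels do not call these batches, and a difference of 4 or 6 h from untreated cannot be told apart from a difference between code series. The N4bp1 gene itself ranked 540 to 1714 in the 6 KO libraries after R837 and 952 to 3459 in the 6 WT libraries after R837, and had no summit in any shortened untreated list. It scored higher after R837 by 2.53 ± 0.38 (SE), as a description, since it passed the filter of at least 2 lists only through treated libraries. The difference of KO from WT after R837 was 0.92 ± 0.38 (limma adjusted p = 0.342). The deleted part of the gene is not given, so this does not check the genotype labels.

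Of the 1909 flanking regions whose side was known, 1319 (69.1%) lay past the 3′ end of their nearest gene and 590 before its 5′ end. The side of 489 was not known because the strand of the gene was not in the tables used. Positions spread evenly over the same annotated flanks fell on the 3′ side in 47.7% of cases. The count of regions fell with distance on both sides: on the 3′ side there were 569, 356, 239 and 155 regions in the successive kilobases from 1 to 5 kb, and on the 5′ side 229, 158, 113 and 90. Another gene was close in some cases, since 104 regions on a 3′ side lay within 5 kb of the 5′ side of another gene and 68 on a 5′ side within 5 kb of a 3′ side.

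The regions belonged to 1732 nearest genes, 28 of which had at least 4 regions. Mcl1, an inhibitor of apoptosis, and Necap1, an endocytosis adaptor, had 6 each. Actr2, a subunit of the actin-nucleating Arp2/3 complex, had 5, as did Tnip3, a partner of the NF-kB inhibitor A20, and Traf1, a signalling adaptor of TNF receptors. A typical region was seen in few libraries, with a median of 5. In all, 81 regions were seen in all 16 libraries, 50 of them on a 3′ side and 20 on a 5′ side, and 533 were seen in exactly 2. A gene annotated as noncoding overlapped 353 of the 2398 regions (14.7%), against 10.3% of gene end regions, 6.20% of gene body regions and 29.3% of intergenic regions. Most were long noncoding RNAs (300 regions).

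A larger share of flanking polymerase lay on the 3′ side of genes after R837. Among flanking summits of known side in the shortened lists, 77.1 ± 5.2% lay on the 3′ side after R837 (SD, n = 12), against 64.0 ± 1.17% in untreated cells (SD, n = 4). The treated libraries ran from 69.6% to 85.4% and the untreated ones from 62.9% to 65.6%, so the groups did not overlap. The difference was 13.1 percentage points (exact permutation test within genotype, two-sided, p = 0.00128, the smallest these relabellings can give, and 0.0136 adjusted over 16 tests). By time, untreated KO cells had 63.4% and 65.6% and untreated WT cells 62.9% and 64.2%. At 2 h, KO cells had 76.3% and 82.3% and WT cells 83% and 85.4%. At 4 h, KO cells had 69.6% and 73.7% and WT cells 73.1% and 78.1%. At 6 h, KO cells had 71.4% and 75.9% and WT cells 73.7% and 83.1%. The mean of the 2 libraries was highest at 2 h in both genotypes, though the second WT library at 6 h (83.08%) lay above the first at 2 h (83.03%). Among treated libraries the share was also high where the deposited list was short. It was 82.3% to 85.4% in lists of 8394 to 11010 summits and 69.6% to 73.7% in lists of 24671 to 29760. The part of list length in the order of the times was not tested. Within the code series that holds both untreated and 2 h libraries, the 2 h libraries were higher by 17.7 points, with an exact p of 0.0556, the smallest this design allows.

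**Figure D1:**
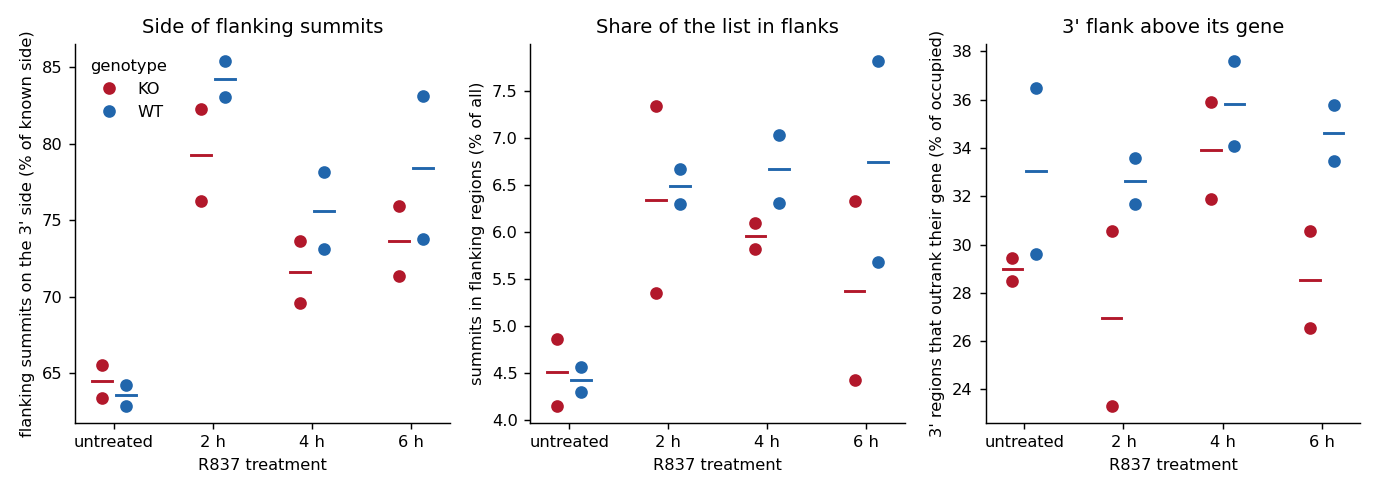
Points by R837 time, untreated to 6 h, with 1 point per library and a bar at the mean of each genotype, give from left to right the share of flanking summits on the 3′ side (%), the share of all summits that lie in flanking regions (%) and the share of occupied 3′ regions that outrank their gene (%). In the left panel the 12 treated libraries sit at 69.6% or above and the 4 untreated ones at 65.6% or below.

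Summits of the 3′ side also took a larger share of the whole shortened list. These are shares of lists of equal length, and a gain in the number of summits is not shown. In the lists as deposited, flanking summits numbered 1231 to 1521 in untreated libraries and 656 to 1693 after R837. Flanking summits of the 3′ side made up 3.91% of all summits after R837 and 2.38% in untreated cells (exact permutation p = 0.00255, 0.0136 adjusted over 16 tests). Those of the 5′ side made up 1.13% after R837 and 1.34% in untreated cells (exact permutation p = 0.0944, 0.194 adjusted). All flanking summits together were 6.27 ± 0.908% of the list after R837 (SD, n = 12, range 4.43% to 7.82%), against 4.47 ± 0.309% in untreated cells (SD, n = 4, range 4.16% to 4.86%), and the ranges overlap (difference 1.79 points, exact permutation p = 0.00255, 0.0136 adjusted). Summits at gene ends, within 1 kb of a gene end, moved with this share: they made up 32.5% to 56.6% of the list after R837 and 60.7% to 63.0% in untreated cells. Counted among summits away from gene ends, a measure added after the data were seen, flanks held 11.2% after R837 and 11.8% in untreated cells (difference -0.583 points, exact permutation p = 0.176).

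The 3′ share was higher after R837 at every distance examined, and the difference passed the adjusted test at 1 to 2 and 2 to 5 kb. By the position of each summit (a measure added after the data were seen, 15 tests), the 3′ side held 80.6% of summits at 1 to 2 kb after R837 and 70.8% in untreated cells, and at 2 to 5 kb 74.8% after R837 and 61.7% in untreated cells (each exact permutation p = 0.00128, 0.00638 adjusted). Nearer than 1 kb it held 31.8 ± 12.4% after R837 (SD, n = 12) and 18.2 ± 1.87% in untreated cells (SD, n = 4), with an adjusted exact permutation p of 0.0957. At 5 to 10 kb it held 56.4% after R837 and 48.5% in untreated cells (adjusted exact permutation p = 0.0957). At 10 to 20 kb it held 52.9% after R837 and 41.9% in untreated cells (adjusted exact permutation p = 0.0957). The change at 1 to 5 kb differed from that nearer than 1 kb by -2.02 points (exact permutation p = 0.583), from that at 5 to 10 kb by 3.66 points (p = 0.153) and from that at 10 to 20 kb by 0.553 points (p = 0.848).

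Single regions were tested with limma on the rank score, over all 15760 regions with a summit in at least 2 shortened lists, and p-values were adjusted over all of these by the Benjamini-Hochberg method (called at adjusted p under 0.05). Of the 2398 flanking regions, 1053 passed that filter and 1345 were too rare. After R837, 111 of the 1053 were called higher and 122 lower. Over all 15760 tested regions 7.47% were called higher and 17.7% lower, so flanking regions were called higher in a somewhat larger share (10.5%) and lower in a smaller one (11.6%) than the background. Gene body regions were near the flanks, with 9.93% higher and 11.97% lower, so this gap to the background is not particular to flanks. Intergenic regions had 6.34% higher and 16.2% lower. The 2 sides differed in their counts: on the 3′ side 76 were higher and 66 lower of 637, and on the 5′ side 15 were higher and 37 lower of 224. Gene end regions had 361 higher and 1707 lower of 7110, so few of them rose. On the 3′ side, 41 of 285 were higher at 1 to 2 kb, 23 of 180 at 2 to 3 kb, 8 of 105 at 3 to 4 kb and 4 of 67 at 4 to 5 kb. At 4 h alone the shares were 16.1%, 13.9%, 18.1% and 14.9% in the same order, with no fall with distance, and a trend was not tested. The median change was 0.15 over the tested flanking regions, 0.02 over all regions and -0.26 over gene end regions. Of the 233 calls, 44 rest on regions with a summit in fewer than 4 shortened lists. For 170 of them (94 higher and 76 lower) fewer than 2 lists outside the group where they were high held a summit, so they passed the filter only through that group and had to differ, and the counts are given as a description. Values of such regions below are a description too and are no support for a change.

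**Figure D2:**
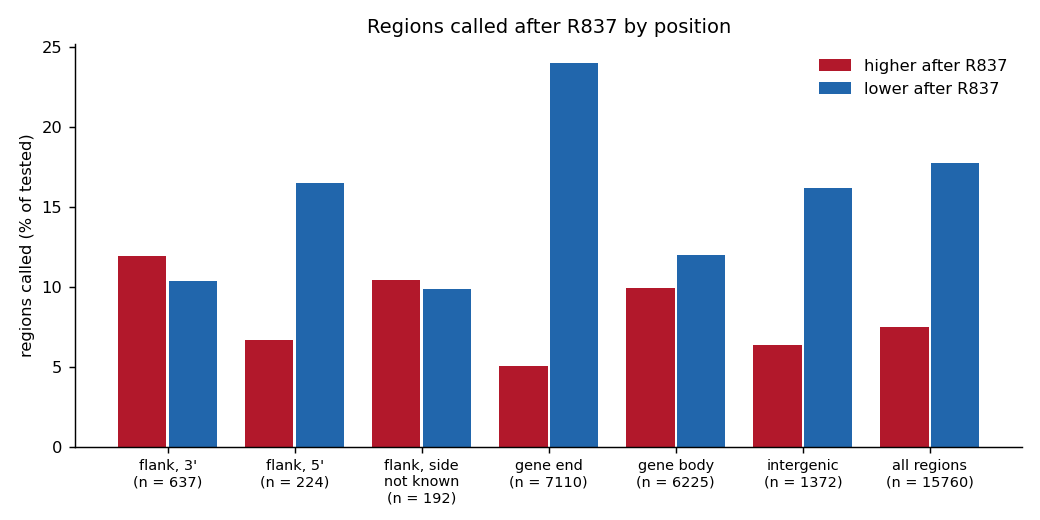
Bars give the share of tested regions (%) called higher (red) or lower (blue) after R837, by position, with the number tested under each. On the 3′ side of genes 11.9% were higher and 10.4% lower, on the 5′ side 6.70% higher and 16.5% lower, and at gene ends 5.08% higher and 24% lower.

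The count depends on how long the lists are taken to be. With the lists as deposited and not shortened, 362 flanking regions were called higher and 562 lower. Leaving out any 1 of the 4 untreated libraries left 62 to 67 called higher (67 without either WT library, 65 without the first KO library and 62 without the second). In bulk cultures, polymerase in more cells and more polymerase per cell cannot be told apart.

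The region past the 3′ end of Vmp1, an endoplasmic reticulum protein of autophagosome formation, had the largest rise (chr11:86582118-86582660, 1469 bp from the gene). After R837 it ranked 4 and 5 in KO and 3 and 4 in WT cells at 2 h, 2 and 7 in KO and 6 and 5 in WT cells at 4 h, and 10 and none in KO and 3 and 3 in WT cells at 6 h. In untreated cells it ranked none and 911 in KO and none and 4763 in WT. It was thus among the best 10 summits of 11 of 12 treated libraries, and the 1 without it was the second KO library at 6 h, which had a rank 9 summit 3796 bp away. The rise was 9.02 ± 1.29 (SE, limma adjusted p = 0.000541), and the groups overlap through that library. The gene region of Vmp1 itself, the gene with 1 kb on both sides, changed by 1.22 (adjusted p = 0.364) and was not called. With deposited lists the region changed by 0.42 (adjusted p = 0.196), and the call was lost. This is the region whose neighbour is the miR-21a hairpin shown above.

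The next 2 regions by size of rise lay by regulators of NF-kB signalling. The region 1402 bp from Nfkbiz, which encodes the inducible nuclear IkB protein IkB zeta, lay at chr16:55809512-55810434. It ranked 196 and 51 in KO and 29 and 53 in WT cells at 2 h, 48 and 66 in KO and 34 and 55 in WT cells at 4 h, and 122 and 964 in KO and 94 and 59 in WT cells at 6 h, and no untreated library had it. The rise was 6.73 ± 0.55, as a description, since the region passed the filter only through treated libraries. The region 1805 bp past the 3′ end of Ikbke, the gene of the noncanonical IkB kinase IKK epsilon, lay at chr1:131252736-131252854 over the noncoding gene Gm28913. Its score after R837 ran from 3.75 to 6.93 with a median of 5.09 in the 12 libraries, and no untreated library had it. The rise was 5.14 ± 0.36, and this region too passed only through treated libraries.

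Of the 12 largest rises, 7 lay on a 3′ side, 3 on a 5′ side and 2 on a side not known. Rassf4, a Ras association domain protein, had a region that scored 2.65 to 6.95 after R837 (median 4.21) and 0 in all 4 untreated libraries, a rise of 4.49 ± 0.39. Sdc4, the heparan sulfate proteoglycan syndecan 4, had one that scored 0 to 6.48 after R837 (median 4.88) and 0 in untreated cells, a rise of 4.34 ± 0.87. In that region 10 of 12 treated libraries had a summit, and the libraries without one make the groups overlap. Past Cflar, which encodes the caspase-8 inhibitor cFLIP, the region rose by 3.43 ± 0.42, with scores of 1.24 to 5.25 after R837 (median 3.41) and 0 to 0.18 in untreated cells. Past Pfkfb3, an activator of glycolysis, it rose by 3.54 ± 0.66, and past Zc3h12a, the gene of the mRNA-degrading feedback inhibitor Regnase-1, by 3.47 ± 0.86 (limma adjusted p = 0.0121). The regions of Rassf4, Sdc4, Cflar and Pfkfb3 passed the filter only through treated libraries, so their values are a description. The Zc3h12a call was lost without the first WT untreated library (adjusted p = 0.0589) or the second KO untreated library (0.0658).

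Of those before a 5′ end, the region 3470 bp before Mllt6, a chromatin-binding protein, covered the noncoding gene Gm11613 and had summits in every library. It scored 4.50 to 6.95 after R837 (median 5.64) and 0.33 to 2.81 in untreated cells (median 0.93), with no overlap and a rise of 4.49 ± 0.53 (limma adjusted p = 0.000166). The region 2015 bp before Fth1, the iron-storing ferritin heavy chain, ranked 1006 and 594 in KO and 458 and 482 in WT cells at 2 h, 461 and 185 in KO and 655 and 487 in WT cells at 4 h, and 491 and 2024 in KO and 988 and 713 in WT cells at 6 h. In untreated cells it ranked 7907 and none in KO and none and 7408 in WT. Every treated library was above every untreated one, and the rise was 3.72 ± 0.41 (adjusted p = 0.000122), while the Fth1 gene region changed by 1.34 and was not called (adjusted p = 0.0713). Before Slc39a13, a zinc transporter, the region rose by 3.32 ± 0.53 and passed the filter only through treated libraries. Its gene region changed by 0.27 (adjusted p = 0.77).

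**Figure D3:**
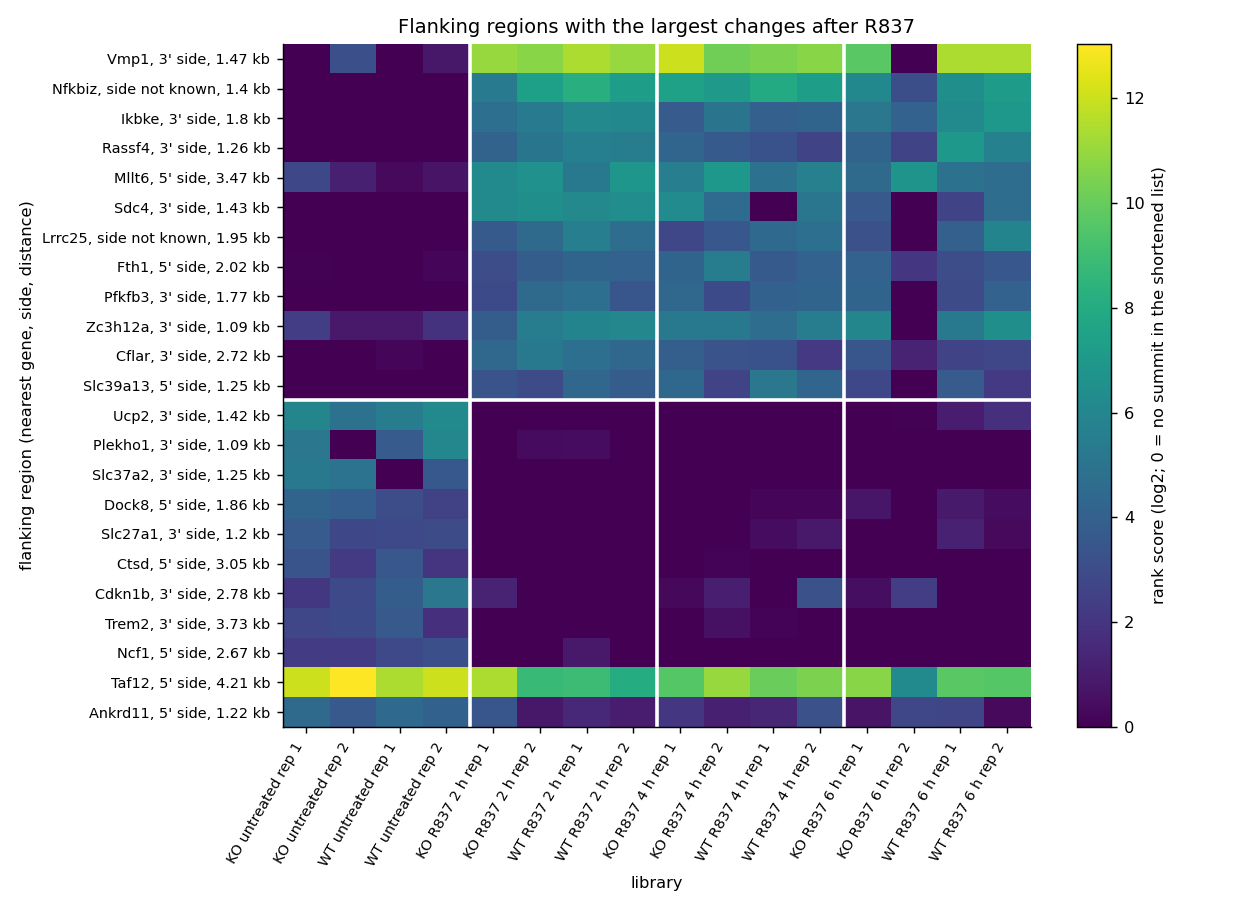
Colour gives the rank score (log2 scale, 0 for no summit in the shortened list) of the 12 flanking regions with the largest rises (top block) and 11 of those with the largest falls (bottom block) after R837, 1 row per region and 1 column per library, from untreated to 6 h. Vmp1 reaches 12.04 after R837 and Taf12 stays at 6.22 or above in every library.

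Of the largest falls given here, 6 lay on a 3′ side and 5 on a 5′ side. The region 1415 bp past Ucp2, a carrier of the mitochondrial inner membrane, lay at chr7:100500336-100501752. It had no summit in any treated library at 2 or 4 h, and at 6 h it ranked none and 7938 in KO and 4122 and 2505 in WT cells. In untreated cells it ranked 138 and 280 in KO and 189 and 115 in WT. The groups did not overlap, and the fall was -5.38 ± 0.28 (SE, limma adjusted p = 7.03e-07), beside -4.69 in the gene region.

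Plekho1, a pleckstrin homology domain protein, had a 3′ region with a fall of -3.67 ± 0.72 (limma adjusted p = 0.00339), and Slc37a2, a sugar phosphate transporter of the endoplasmic reticulum, one of -3.46 ± 0.48. Before Dock8, an activator of the GTPase CDC42, the region had a summit in 5 of 12 treated libraries, at scores up to 0.94, and ranked 458 and 574 in KO and 977 and 1447 in WT untreated cells, and the fall was -3.21 ± 0.23 (adjusted p = 7.5e-06). The region 3046 bp before Ctsd, the lysosomal protease cathepsin D, scored 0 to 0.13 after R837 and 2.04 to 3.56 in untreated cells, a fall of -2.79 ± 0.29. Past Trem2, a lipid-sensing receptor of macrophages, the region scored 0 to 0.61 after R837 and 1.76 to 3.65 in untreated cells, a fall of -2.71 ± 0.30 (adjusted p = 0.000119). The groups did not overlap at Dock8 or Trem2. Before Ncf1, a subunit of the NADPH oxidase, the region fell by 2.60, and the gene region changed by -0.56 and was not called (adjusted p = 0.414). The regions of Slc37a2, Ctsd and Ncf1 passed the filter only through untreated libraries, so their values are a description.

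The flanking region with the highest mean rank score lay 4207 bp before Taf12, a TFIID subunit, over Rnu11, the U11 small nuclear RNA of the minor spliceosome (chr4:132270117-132270180). It ranked 2 and 1 in KO and 3 and 2 in WT untreated cells, 3 and 19 in KO and 17 and 31 in WT cells at 2 h, 11 and 4 in KO and 8 and 6 in WT cells at 4 h, and 5 and 113 in KO and 10 and 11 in WT cells at 6 h. It was near the top of every list, with treated libraries at lower places and 1 of them at the level of the untreated ones. The fall was -2.59 ± 0.71 (limma adjusted p = 0.0202), and it was lost without the first WT (adjusted p = 0.0542), the second WT (0.0810) or the second KO untreated library (0.0931).

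Regions over small RNA genes and their host genes formed a class of 25, of which 22 were tested. After R837, 1 was called higher, by Cnot11 over Snord89 (1.65), and 4 were called lower. With 7.47% higher and 17.7% lower over all tested regions, the lower calls are near the background and are no result about small RNA genes. Besides Taf12 these were the regions of Phactr4 over Snhg3 (-1.69 ± 0.44, limma adjusted p = 0.0157), Trnau1ap over Snhg12 (-1.66 ± 0.50, adjusted p = 0.0325) and Glrx5 over Snhg10 (-0.75). The Cnot11 and Glrx5 regions passed the filter only through the group where they were high. The region of Lrrc75a over 2410006H16Rik, whose promoter is shown above, scored among the highest of all and was lower after R837 (-1.70 ± 0.39, adjusted p = 0.00884). The regions of Prss12 over Snhg8 (-0.31, adjusted p = 0.655) and Tmem167b over Scarna2 (-0.92, adjusted p = 0.172) were also among the highest and were not called. Near microRNAs, the Fbrs region by miR-7060 was higher (1.55, adjusted p = 0.0384). The Mrpl39 region by miR-155 changed by 0.91 (adjusted p = 0.204), the Zswim4 region by miR-23a, miR-27a and miR-24 by 1.11 (adjusted p = 0.128) and the Ovca2 region by miR-132 and miR-212 by 0.05, and none of these was called.

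Each time was also set against the same 4 untreated libraries, which the 3 comparisons share. At 2 h, 137 of the 1053 regions were higher and 110 lower, with backgrounds of 8.98% and 14.7%. At 4 h, 154 were higher and 101 lower, with backgrounds of 8.66% and 12.8%. At 6 h, 92 were higher and 104 lower, with backgrounds of 6.88% and 14% over all regions. At all 3 times flanking regions had more higher calls and fewer lower calls than the background share. Gene body regions did too, so this gap is not particular to flanks. At 2 h 13.54% of gene body regions were higher and 10.51% lower, against 13.01% and 10.45% of flanking regions. At 4 h it was 10.38% and 9.35%, against 14.62% and 9.59%. At 6 h it was 9.25% and 9.27%, against 8.74% and 9.88%. Intergenic regions had 17.06% higher at 4 h, but fewer than the background at 2 and 6 h. Gene end regions had fewer higher and more lower calls at each time. With deposited lists, 136 flanking regions were higher and 603 lower at 2 h. The largest rises at 2 h were at Vmp1 (10.05), Nfkbiz (7.06), Sdc4 (6.30), Ikbke (5.57) and Rps9, a ribosomal protein gene (5.21 ± 0.42, limma adjusted p = 2.49e-05). Large falls at 2 h were at Ucp2 (-5.62), Plekho1 (-3.54), Slc37a2 (-3.46) and Dock8 (-3.43).

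A flank and its own gene mostly moved the same way. Of the 111 flanking regions higher after R837, 71 had a gene region that was also higher, 2 had one that was lower, 35 had one that was not called and 3 had one that was not tested. Of the 122 lower ones, 78 had a lower gene region, 24 one not called and 20 one not tested. A higher gene region was found for 0 of them by limma, both at adjusted p under 0.05 and at an unadjusted p under 0.05. Over all 8471 tested gene regions 5.78% were higher and 29.4% lower. Across 949 flanking regions with a tested gene, the changes of flank and gene had a Pearson correlation r of 0.51 and a Spearman rank correlation of 0.62, as a description, since neighbours share libraries and a summit list. On the 3′ side r was 0.53 (n = 584) and on the 5′ side 0.46 (n = 193). Flanks that outranked their gene were about as common after R837 as before: on the 3′ side 32.1% of occupied regions after R837 and 31% in untreated cells did so (exact permutation p = 0.575), and on the 5′ side 43.2% after R837 and 38.6% in untreated cells did (exact permutation p = 0.0969).

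**Figure D4:**
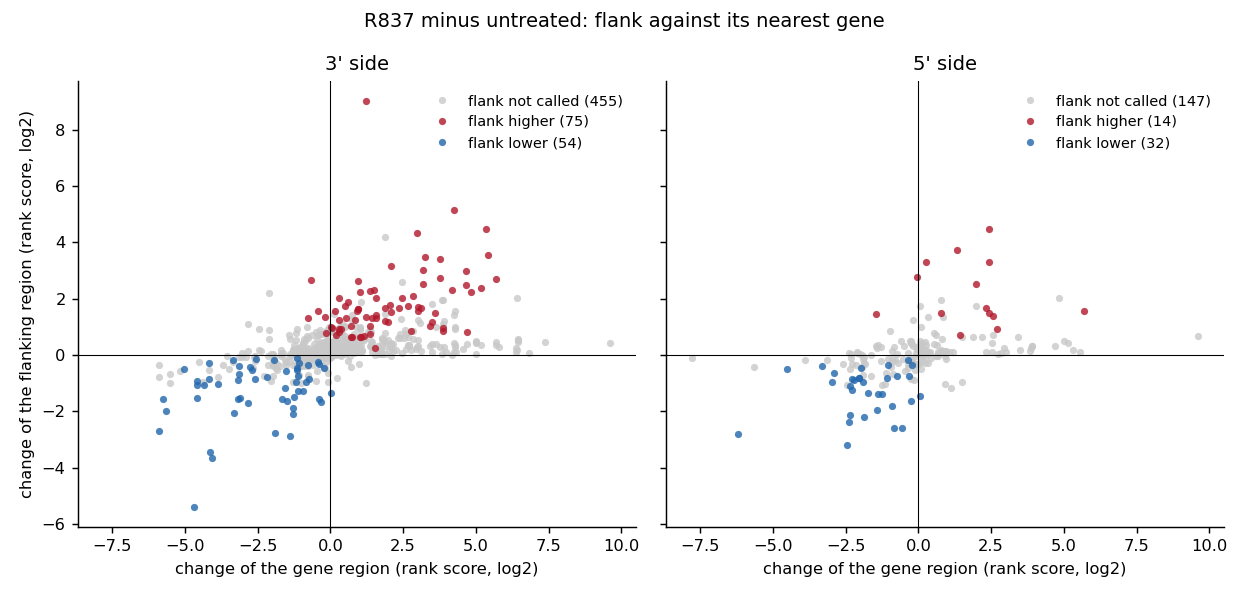
Each point is a flanking region, with the change of its gene region on the x axis and its own change on the y axis (rank score, log2, R837 minus untreated), 3′ side left and 5′ side right, coloured by the call of the flank. Points called higher or lower lie mostly in the quadrants where flank and gene have the same sign, and the top left-hand panel point is Vmp1 at 9.02 against 1.22 for its gene.

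By gene list, the flanks of primary NF-kB response genes were among those that rose, against medians of 0.15 over tested flanking regions and 0.02 over all regions. The counts of each list stand beside 7.47% higher and 17.7% lower over all regions, and 10.5% and 11.6% over tested flanking regions. This list had 33 tested flanking regions, of which 10 rose and 0 were called lower by limma (13 and 0 at an unadjusted p under 0.05), with a median change of 0.44. They lay by Bcl3, Cd40, Cd83, Cflar, Nfkbiz, Sod2 and Traf1. Regions of Cd40, Cflar, Nfkbiz and Sod2 among them passed the filter only through treated libraries and had to differ, so the count is a description. Past Sod2, the mitochondrial superoxide dismutase, the region scored 1.23 to 4.28 after R837 and 0 in all untreated libraries, a rise of 2.99 ± 0.49. The region by Cd40, a receptor for T cell help, rose by 2.65 ± 0.35. Of 27 tested regions by negative feedback regulators, 5 rose and 0 were called lower by limma (8 and 0 unadjusted), with a median of 0.46. They lay by Dusp1, a phosphatase that switches off MAP kinases (2.03 ± 0.30, adjusted p = 0.000617), Irak3, Socs1, Zc3h12a and Zc3h12c (2.30, passed only through treated libraries). Tnfaip3, the gene of A20, had a region that changed by 2.04 and was not called (adjusted p = 0.0853).

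For the shorter lists that follow, 1 call is near that background and is read as no result about the list. Secondary cytokines and effectors had 3 higher and 0 lower of 11 by limma (3 and 0 unadjusted), with a median of 0.28. These were Acod1, which makes itaconate (2.72), the chemokine Ccl5 (1.37) and complement C3 (0.63). All of them passed the filter only through treated libraries, so the count is a description. Interferon-stimulated genes had 1 higher of 7 (Oas1a, 0.68, also only through treated libraries), with a median of 0.36. Immediate early genes had 1 lower of 8, 5′ of Nr4a3, an orphan nuclear receptor (-1.61, adjusted p = 0.0116), and a Junb region changed by 1.75 and was not called (adjusted p = 0.132). Glycolysis and hypoxia genes had 3 higher of 8 (median 0.63), at Pfkfb3, the enolase gene Eno1 (2.62) and the lactate dehydrogenase gene Ldha (1.68). These regions too passed only through treated libraries. The Eno1 region took the opposite sign with deposited lists (-0.48).

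Lysosome and phagosome genes had 4 of 7 tested regions lower and 0 called higher by limma (7 and 0 unadjusted), and a median of -0.72. Over all regions 17.7% were lower and 7.47% higher. The lower regions of this list lay by Atp6v1a, a subunit of the proton pump, Ctsd, the protease gene Ctss (-0.81) and the membrane protein gene Lamp1 (-1.63). Those of Ctsd, Ctss and Lamp1 passed the filter only through untreated libraries and had to differ, so the count is a description. The macrophage identity list had calls in both directions, with 5 higher and 3 lower of 26 (median 0.21). The higher ones included the regions of Adgre1, Fcgr2b (3.03), Itgam and Maf, and the lower ones those of Gpnmb and Trem2. Regions of Fcgr2b, Maf and Gpnmb passed the filter only through the group where they were high. Those of the transcription factor gene Cebpb (4.19, adjusted p = 0.0820) and the lysozyme gene Lyz2 (2.58, adjusted p = 0.0648) were not called. Actin and adhesion genes had 1 higher of 13, at the intermediate filament gene Vim (1.32, adjusted p = 0.0122; -0.75 when summits were joined within 1000 bp). Ferritin and antioxidant genes had 1 higher of 6, at Fth1. Of the translation list 0 of 7 tested regions were called by limma (median 0.16), and 1 had an unadjusted p under 0.05. Of the chaperone list it was 0 of 2 (median -0.12), with 0 unadjusted, and of the histone list 0 of 1 (-0.55), with 1 unadjusted.

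Few flanking regions differed between KO and WT cells. After R837, 12 of the 1053 were higher in KO than in WT cells and 14 lower, with backgrounds of 0.73% and 0.99% over all regions. Those higher in KO included 2 regions by primary NF-kB response genes (Cd40 and Traf1), and those lower included 5 by macrophage identity genes. These counts lean on the spread estimated over all 8 groups. Fitted on the 12 treated libraries alone, limma called 2 of 881 tested flanking regions at adjusted p under 0.05 and 142 had an unadjusted p under 0.05. With deposited lists, 163 were higher and 31 lower. Of the 26 calls, 9 rest on regions in fewer than 4 shortened lists, and 13 (8 higher and 5 lower) passed the filter only through the genotype where they were high, so they had to differ. For those named here (Pirb, Socs1, Pik3r5 and a second Maf region, 3751 bp from the gene) the values are a description, given with no p. That Maf region is among the 5 by macrophage identity genes, so their count is a description too. Leaving out 1 library moved the count to as many as 72 (without the first WT library at 6 h), 62 (the first KO library at 6 h), 47 (the second KO library at 6 h or the second WT library at 4 h) and 43 (the first KO library at 2 h). Few of these flanks had a gene region called in the same direction, 1 of 12 higher and 1 of 14 lower, with backgrounds of 0.46% and 0.295% over gene regions.

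The region 1825 bp from Malt1, a protease and scaffold that links antigen and pattern receptors to NF-kB, was higher in KO cells by 1.84 ± 0.23 (SE, limma adjusted p = 0.0070). It ranked 2003 and 1316 in KO and 2521 and 1666 in WT cells at 2 h, 674 and 951 in KO and none and 7654 in WT cells at 4 h, and 2274 and 2316 in KO and none and none in WT cells at 6 h. The genotypes were near each other at 2 h and apart at 4 and 6 h. The region 1155 bp from Cd40 ranked 259 and 152 in KO and 273 and 451 in WT cells at 2 h, 709 and 687 in KO and 3231 and 5548 in WT cells at 4 h, and 5891 and 1858 in KO and none in WT cells at 6 h. Every KO library was above both WT libraries of its time. The difference was 1.59 ± 0.35 (adjusted p = 0.0459), and it lost its call in 17 of 28 other settings. The region 1705 bp past Traf1 was higher by 1.11 ± 0.24 (adjusted p = 0.0428, lost in 19 of 28), and the Traf1 gene region was higher by 2.24 (adjusted p = 0.00232). Past Socs1, an inhibitor of cytokine receptor signalling, the region scored higher by 0.52 ± 0.08, with ranks of 3003 and 2914 in KO cells and none in WT cells at 6 h.

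The largest difference in favour of KO, 1608 bp past Pirb, an inhibitory receptor of myeloid cells, came from 1 time (chr7:3710865-3710929). It ranked 103 and 97 in KO cells at 6 h, and no other treated library had it, for a difference of 2.13 ± 0.19. The other treated libraries had a different summit 604 to 3016 bp away, at ranks from 60.5 to 248.5. Taking the best summit within 2 kb, the difference was 1.26 (limma adjusted p = 0.307). On the other side of the same intergenic space, the region past Rps9 ranked 192 and 119 in KO and 138 and 89 in WT cells at 2 h, was absent from all lists at 4 h, and ranked none in KO and 181 and 60 in WT cells at 6 h. Its difference was -2.26 ± 0.34 (adjusted p = 0.0165), and -1.15 within 2 kb (adjusted p = 0.237). Before Saa1, an acute phase protein, the region was higher in KO cells by 1.05 ± 0.19 (adjusted p = 0.0190), with ranks of 1132 and 885 in KO cells and 7655 and 6456 in WT cells at 4 h.

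Among regions lower in KO cells, the one 1572 bp from Lpl, the secreted enzyme lipoprotein lipase, lay at chr8:68908039-68908969. It ranked 1861 and 1656 in KO and 3857 and none in WT untreated cells, none and 3810 in KO and 6237 and none in WT cells at 2 h, none and 2202 in KO and 406 and 140 in WT cells at 4 h, and none in KO and 346 and 149 in WT cells at 6 h. WT cells thus gained it at 4 and 6 h, when KO cells had 1 summit in 4 libraries. The difference was -3.01 ± 0.45 (limma adjusted p = 0.0165), and the Lpl gene region was lower by -2.69 (adjusted p = 0.0301). The region 1385 bp past C1qb, a chain of complement C1q, ranked 257 and 458 in KO and 161 and 229 in WT untreated cells, 135 and 78 in KO and 64 and 91 in WT cells at 2 h, 4280 and 1791 in KO and 511 and 431 in WT cells at 4 h, and 6879 and 3906 in KO and 446 and 179 in WT cells at 6 h. KO libraries fell below WT ones at 4 and 6 h, and the difference over all times was -2.39 ± 0.41 (adjusted p = 0.0186).

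The region 1974 bp from Maf, a transcription factor of tissue macrophages, had no summit in untreated cells or at 2 h. It ranked none and 6116 in KO and 713 and 604 in WT cells at 4 h, and none and 6126 in KO and 846 and 541 in WT cells at 6 h, a difference of -2.28 ± 0.22 (limma adjusted p = 0.000937). The region 2674 bp from Arhgef17, a guanine nucleotide exchange factor, also lay 2795 bp from P2ry6, a receptor for extracellular nucleotides, and was lower in KO cells by -2.70 ± 0.44 (adjusted p = 0.0182). The region of Vim was lower too (-2.10 ± 0.33, adjusted p = 0.0182). That of Pik3r5, a regulatory subunit of PI3 kinase gamma, had summits only in the 2 WT libraries at 4 h, for a difference of -1.67 ± 0.19.

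**Figure D5:**
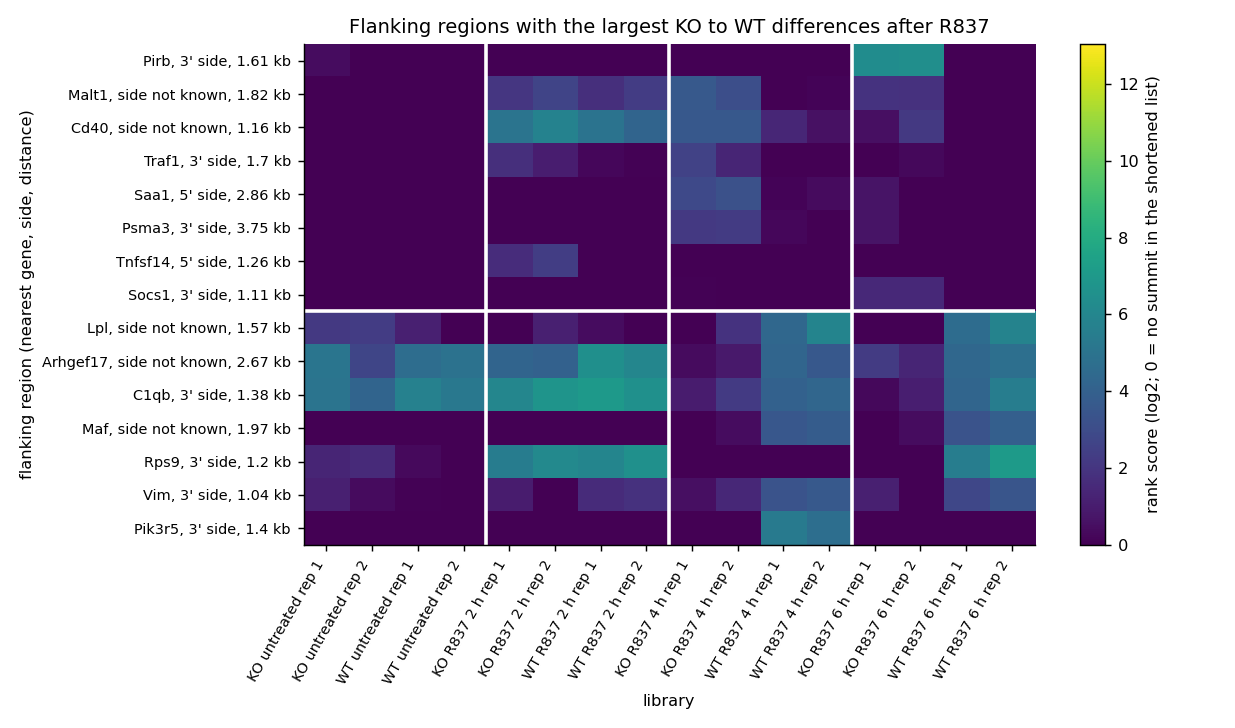
Colour gives the rank score (log2 scale, 0 for no summit in the shortened list) of the 8 flanking regions most in favour of KO (top block) and 7 of those most in favour of WT (bottom block) after R837, 1 row per region and 1 column per library, KO left of WT within each time. The largest of them differ by 2.13 (Pirb) and -3.01 (Lpl).

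By list, the KO differences after R837 were 2 higher and 0 lower of 33 for primary NF-kB genes (7 and 2 unadjusted), 1 higher of 27 for feedback regulators, 0 higher and 5 lower of 26 for macrophage identity (3 and 9 unadjusted), and 1 lower each for interferon-stimulated genes (of 7) and actin and adhesion genes (of 13), by limma. The backgrounds over all regions were 0.73% higher and 0.99% lower, and lists with 1 call are not set apart from them. The 5 by macrophage identity genes included the Maf region 3751 bp from the gene (-0.97), and the 1 by feedback regulators was that of Socs1. Both passed the filter only through the genotype where they were high and had to differ, so these counts are a description. In the share of flanking summits on the 3′ side, KO cells had 72.3% and WT cells 75.5% (difference -3.20 points, exact permutation test within time, p = 0.0864). In untreated and treated libraries together, 29.6 ± 3.71% of occupied 3′ regions outranked their gene in KO cells and 34.0 ± 2.59% in WT cells (SD, n = 8 each), and the ranges overlap (difference -4.44 points, exact permutation p = 0.00926, 0.0370 adjusted over 16 tests).

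At single times the calls were few. In untreated cells 5 were higher in KO than in WT cells and 14 lower (0.475% and 1.33%, with backgrounds of 0.742% and 0.971%). At 2 h 9 and 7 were (0.855% and 0.665%, with backgrounds of 0.412% and 0.838%). At 4 h 21 and 19 were (1.99% and 1.8%, with backgrounds of 0.914% and 0.723%), and at 6 h 8 and 18 (0.76% and 1.71%, with backgrounds of 0.939% and 0.99%). The shares were above the background in both directions at 4 h, in the higher direction at 2 h and in the lower direction in untreated cells and at 6 h, and these gaps were not tested. The split between directions moved with the lists and with single libraries. With deposited lists 39 were higher and 40 lower in untreated cells, 8 higher and 12 lower at 2 h, 140 higher and 37 lower at 4 h, and 187 higher and 19 lower at 6 h, so the larger side turned for the 2 h and the 6 h libraries. Without the second KO untreated library the untreated split was 26 and 18. At 2 h it was 34 and 9 without the first KO library of that time, against 11 and 31 without the first WT one. Without the second WT library at 4 h the split there was 18 and 39. At 6 h it was 30 and 29 without the first KO library, 29 and 13 without the second KO library and 7 and 55 without the first WT library. Fitted on the compared groups alone, limma called 0 flanking regions in untreated cells, 1 at 2 h, 0 at 4 h and 0 at 6 h, while 30, 19, 88 and 32 had an unadjusted p under 0.05. Many calls rest on regions in fewer than 4 lists: 14 of 19 in untreated cells, 11 of 16 at 2 h, 19 of 40 at 4 h and 11 of 26 at 6 h. Just as many, 14, 11, 19 and 11, passed the filter only through the group where they were high and had to differ. Values of such regions are given below as a description, with no p. The largest in each direction follow.

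In untreated cells the largest differences in favour of KO were at Gpnmb, a glycoprotein of lysosome-rich macrophages (2.91 ± 0.30, limma adjusted p = 0.00104), Id2, an inhibitor of helix-loop-helix factors (2.15 ± 0.41, adjusted p = 0.0218), and the amino acid transporter gene Slc43a2 (1.96 ± 0.39, passed only through KO untreated cells). Those in favour of WT were at the secreted factor gene Metrnl (-1.78 ± 0.29, adjusted p = 0.00881) and at the sorting nexin genes Snx5 (-1.77 ± 0.27, summits only in the 2 WT untreated libraries) and Snx8 (-1.66 ± 0.24, adjusted p = 0.00447). At 2 h, C3 (2.43 ± 0.34, adjusted p = 0.0046), the TNF family ligand gene Tnfsf14 (2.02 ± 0.24) and Foxp4 (1.5 ± 0.27) differed most in favour of KO. The Tnfsf14 and Foxp4 regions had summits only in the 2 KO libraries at 2 h. Bach1, a repressor of antioxidant genes (-1.90 ± 0.27, summits only in the 2 WT libraries at 2 h), and Clic4 (-1.74 ± 0.34, limma adjusted p = 0.0355) were among the lowest. The Clic4 region lost its call in 20 of 28 other settings.

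At 4 h the largest in favour of KO were at Nfe2l2, which encodes the antioxidant regulator NRF2 (3.64 ± 0.65, limma adjusted p = 0.0163), Malt1 (3.32 ± 0.40, adjusted p = 0.00166) and Saa1 (2.81 ± 0.32, adjusted p = 0.00122). Those in favour of WT were at Pik3r5 (-5.01 ± 0.32, summits only in the 2 WT libraries at 4 h), Lpl (-4.17 ± 0.78, limma adjusted p = 0.0209) and Tm9sf3 (-3.50 ± 0.77, adjusted p = 0.0486, lost in 20 of 28 other settings). At 6 h the largest in favour of KO were at Pirb (6.39 ± 0.33, passed only through KO cells at 6 h), Tnip3 (3.33 ± 0.54, summits only in the 2 KO libraries at 6 h) and Malt1 (1.87 ± 0.40, limma adjusted p = 0.0386, lost in 15 of 28 other settings). Those in favour of WT were at Rps9 (-6.32 ± 0.59, limma adjusted p = 0.000717), Lpl (-5.21 ± 0.78, adjusted p = 0.00566) and C1qb (-4.20 ± 0.71, adjusted p = 0.0109). The Pirb and Rps9 regions share an intergenic space. At 6 h KO libraries scored 6.35 and 6.44 at Pirb and 0 at Rps9, and WT libraries 0 at Pirb and 5.53 and 7.12 at Rps9. With summits joined within 1000 bp the Rps9 difference at 6 h changed sign. A shift of the summit between the 2 regions was not tested.

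The flanks of N4bp1 itself were not called. The region 2598 bp past its 3′ end, seen in 12 libraries, changed by 0.60 after R837 (limma adjusted p = 0.224) and by -0.18 in KO against WT (adjusted p = 0.916). The region 3349 bp before its 5′ end changed by 0.42 after R837 (adjusted p = 0.311), and a further one 4952 bp past the 3′ end was too rare to test.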

How the data were processed

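Polymerase II ChIP-seq libraries (75 nt single-end reads) of 8 groups with 2 libraries each were used as 16 lists of peak summits, each summit with a −log10 score deposited by the authors (a p or q value; the files do not say which). GSNAP, MACS2 and GRCm38 are named in the submitters' processing notes, with no versions; the call threshold and the use of the input library, not analysed here, are not given. Lists were called per library, not pooled. Reads are not in the lists, so depth is unknown and no counting interval is given. Separate animals or cultures are not stated for the libraries of a group, so the spread behind each p-value may be technical.

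Lists were shortened to the best 8394 summits by score (the length of the shortest list), since list lengths differed. Tied scores share their mean rank, printed as a whole number where not given with a decimal. Nearest genes were taken from RefSeq (21883 protein-coding genes), and the side of a gene from the strand in the RefSeq promoter table (17491 genes). limma 3.58.1 (R 4.3.3) with a trended prior fitted 8 group means to the rank scores, and the Benjamini-Hochberg adjustment ran over all 15760 tested regions with a threshold of 0.05. The fit was tested on simulated data. Shares per library were compared with exact two-sided permutation tests, relabelling within genotype or within time. The regions and gene lists were chosen with earlier results of these data known.

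Regions were named by a rule on the size of change: the 12 largest called rises and falls after R837, 5 and 5 at 2 h, 8 and 8 in KO after R837 (at single times the 3 and 3 largest are given), the 8 with the highest mean score, and the 4 genes of each list with the largest change. Other list members called are named with them. A few regions that this rule names are not reported here. Same-numbered libraries deviated together by over 0.1 in 1 of 28 pairs of groups. The labels do not say whether the numbers pair the libraries, and such correlations cannot decide it.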

Additional observations from a re-analysis of the deposited data

Results flagged for a closer look

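In 14 flanking regions the response to R837 (the mean rank score after R837 minus untreated) differed between KO and WT cells by limma's test of that difference, at adjusted p under 0.05 over all 15760 tested regions, where 0.628% of all regions were higher and 0.508% lower (9 and 5 of the 1053 flanking regions). Of the 14, 7 rest on regions in fewer than 4 shortened lists. In the first 5 the KO response was below the WT response. At Lpl it was -1.75 in KO and 2.96 in WT cells, a difference of -4.70 (adjusted p = 0.0302). At Rps9 it was 0.47 in KO and 4.02 in WT cells (difference -3.55, adjusted p = 0.0298). At Gpnmb it was -3.45 in KO and -0.53 in WT cells (difference -2.91). The Gpnmb region scored 0 in every treated library, so this restates the difference between untreated cells, and no difference in response is read from it. At Id2 it was -2.24 in KO and 0.06 in WT cells (difference -2.31, adjusted p = 0.0431). Mean scores there after R837 were 0.06 in KO and 0.22 in WT cells, so that difference lies mostly in untreated cells. At Maf it was 0.15 in KO and 2.44 in WT cells (difference -2.28, adjusted p = 0.0302). Of 27 other settings, the call was lost in 10 at Lpl, 14 at Rps9, 18 at Id2 and 5 at Maf. Leaving out 1 library made up 8, 6, 13 and 2 of these.

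In the other 9 the KO response was above the WT response. At Pirb, whose summits lay in the 2 KO libraries at 6 h and 1 KO untreated library, it was 1.92 in KO and 0 in WT cells (difference 1.92). At the other 8 the differences were 1.77 at Snx5, 1.68 at Metrnl, 1.55 at Snx8, 1.38 at Irf2bp2 (3707 bp), 0.92 at Depdc5, 0.80 at Irf2bp2 (1393 bp), 0.73 at Trmt61a and 0.39 at Nrros. Those of Snx5, Depdc5, Trmt61a, Nrros and both Irf2bp2 regions had summits only in the 2 WT untreated libraries. They passed the filter only through that group and had to differ, so no difference in response is read from them. At Metrnl and Snx8 mean scores after R837 were at most 0.13 in both genotypes, so those differences too lie mostly in untreated cells. With deposited lists the split was 179 higher and 66 lower, and the larger side turned without the second KO untreated library (12 and 24) and without the first WT library at 6 h (8 and 10).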

How the results depend on the processing

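Depth is unknown and the shortest list limits which summits are ranked, so a region scored 0 may hold polymerase below the last rank, or have its summit in a neighbouring region. Over the settings tried, 3′ shares kept their direction: the R837 difference was 12.4 to 13.8 points when 1 library was left out (highest exact p = 0.0051), and that of KO against WT -4.99 to -1.78 (exact p = 0.0309 to 0.455, under 0.05 without either WT untreated library or the second KO library at 2 h) and -3.73 with flanks of all annotated genes (p = 0.0278). The share of all summits in flanks differed after R837 by 1.65 to 1.96 points when 1 library was left out, by 0.587 with deposited lists (exact permutation p = 0.126) and by -0.583 among summits away from gene ends. In KO against WT it was -0.792 to -0.289.

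Counts of calls moved with the list. With lists of 4197 summits, calls after R837 were 56 higher and 54 lower, at 2 h 78 and 47, at 4 h 130 and at 6 h 90, and for KO 11 untreated, 8 at 2 h, 22 at 4 h and 16 at 6 h. With lists as deposited they were 362 higher and 562 lower after R837, 603 lower at 2 h, 795 at 4 h and 699 at 6 h, and for KO 194 after R837, 79 untreated, 177 at 4 h, 206 at 6 h and 245 for the difference of responses. Under that setting the median change of all regions was -0.17, and it was -0.14 with summits joined within 1000 bp, against 0.02. Of the 111 and 122 calls after R837, 59 and 77 were kept with deposited lists and 106 and 115 with the best summit within 2 kb, an alternative added after the data were seen. That one gave 256 higher after R837, 235 higher at 2 h, 392 at 4 h and 318 at 6 h. Joining within 250 bp gave 68 higher after R837, and for KO 10 after R837, 29 untreated and 27 at 2 h. Joining within 1000 bp gave for KO 9 after R837, 6 at 2 h, 16 at 4 h and 16 at 6 h. Scoring only presence gave 193 higher after R837, and for KO 81 after R837, 26 at 2 h and 108 for the difference of responses. Ranking regions instead of summits gave 73 lower after R837, 63 lower at 2 h and 12 for KO untreated. Regions in at least 4 lists gave for KO 15 after R837, 5 untreated, 3 at 2 h, 22 at 4 h, 15 at 6 h and 1 for the difference of responses. Fitting only the compared groups, with fewer samples to estimate the spread, gave 67 lower at 2 h and 112 at 6 h, and for KO 2 after R837, 0 untreated, 1 at 2 h, 0 at 4 h and 0 at 6 h by limma. It does not apply to R837 over all times or to the difference of responses, where all groups are compared. Leaving out 1 library gave 62 to 156 higher and 110 to 140 lower after R837, 104 to 171 and 75 to 137 at 2 h, 210 to 258 at 4 h and 147 to 213 at 6 h, and for KO 20 to 72 after R837, 14 to 44 untreated, 12 to 43 at 2 h, 32 to 57 at 4 h, 20 to 62 at 6 h and 9 to 36 for the difference of responses. The cause of these moves was not tested.

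With the replicate number as a block, 105 were higher and 119 lower after R837 and 15 differed in KO after R837 (5 higher and 10 lower). Correlations of same-numbered deviations ran from -0.117 to 0.176, which cannot decide whether the numbers pair the libraries.

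Some named regions changed sign. With deposited lists these were, after R837, Zc3h12a (-0.88), Eno1 (-0.48), Sqstm1 (-0.76), Ovca2 (-0.68) and Znfx1 (-1.04), for KO after R837 Arhgef17 (0.098) and Maf (0.39), for KO C3 at 2 h (-0.29), Nfe2l2 (-0.29) and Malt1 (-0.585) at 4 h, and for the difference of responses Lpl (0.057) and Maf (0.39). With joining within 1000 bp they were Vim (-0.75) and Zswim4 (-2.66) after R837, for KO Pirb after R837 (-0.081), Metrnl (0.04) and Snx5 (0.0082) untreated, Foxp4 (-1.41) at 2 h and Rps9 (0.068) at 6 h, and for the difference of responses Nrros (-0.45), Metrnl (-0.44) and Pirb (-0.46). With joining within 250 bp they were, for KO, Cd40 (-0.13) and C1qb (0.70) after R837, Gpnmb (-0.535) and Id2 (-0.15) untreated, and for the difference of responses Gpnmb (0.535), Id2 (0.15) and Metrnl (-0.11). With presence only they were Zc3h12a (-0.083) after R837 and, for the difference of responses, Id2 (0.17) and Pirb (-0.17). With the best summit within 2 kb they were Sqstm1 (-1.86) and Zswim4 (-2.69) after R837, Slc43a2 (-0.17) and Snx5 (0.0082) for KO untreated, Foxp4 (-1.41) at 2 h and Nrros (-0.41) for the difference of responses.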
